A study of Mus musculus with 4 samples.

Results

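Apolipoproteins are the protein parts of plasma lipoproteins, and the 8 genes described here, Apoa1, Apoa2, Apoa4, Apob, Apoc1, Apoc2, Apoe and Apoh, were read by 10 of the 12422 non-control probe sets of 4 Affymetrix MG_U74Av2 arrays. Every probe set annotated to 1 of the 8 genes was taken, whatever its signal. Of the 10 probe sets, 8 passed a filter that required a mean signal of 26.9 or more over the arrays, the median of all such means, and these 8 stood for 1 gene each. The other 2 were second probe sets of Apoa2 and Apoe and are described with those genes.

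Equal amounts of liver were pooled within each group before RNA was extracted. The mice were fed females, 8 months old when killed and on their diet for 6 months. The groups were HSL-null mice on a high-fat diet (FD, 58% of energy from fat), with 4 livers in the pool, wild-type mice on FD, with 6, HSL-null mice on a normal diet (ND, 11% of energy from fat), with 6, and wild-type mice on ND, with 6. HSL-null mice lack hormone-sensitive lipase, the enzyme encoded by Lipe that hydrolyses stored acylglycerols and cholesteryl esters, and the knockout was general, not confined to liver. The sources used here give neither the strain nor the design of the deleted allele. Each group was 1 array of pooled liver, so nothing could be tested, and "higher" and "lower" compare single pools.

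The signal is a linear intensity made by the authors with MAS5. Signals under 6.1, the 25th percentile of all values, were raised to that floor, which touched none of the 8 kept probe sets. A log2 ratio is the log2 signal of the first-named group minus that of the group it is set against, and a ratio of 2-fold or more, a log2 ratio of at least 1 in size, counted as a difference. A measure of error came from genes with more than 1 probe set: the SD attributed to a log2 ratio by the disagreement of the 2 brightest probe sets of a gene was 0.298 over 687 genes, and 0.134 over 19 genes with both probe sets at a mean signal of at least 1000. These SDs leave out error that is common to an array, such as labelling, and variation between animals, neither of which was measured. The number of arrays limits the precision.

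Liver secretes most apolipoproteins. Apolipoprotein B is the large scaffold of very-low-density lipoprotein, which carries triacylglycerol out of the liver, and in mice the liver also makes its short form through editing of the Apob transcript. Apolipoproteins A-I and A-II are the main proteins of high-density lipoprotein, apolipoprotein E is the ligand through which remnant particles are taken up by receptors, and the C apolipoproteins act on lipases and on uptake. In the mouse genome Apoa1 and Apoa4 lie in 1 gene cluster on chromosome 9 with Apoc3 between them, and Apoe, Apoc1, Apoc4 and Apoc2 lie in another on chromosome 7, the chromosome that also holds Lipe. Apob lies on chromosome 12, Apoa2 on chromosome 1 and Apoh on chromosome 11.

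RefSeq promoter windows of build GRCm38.p6 were found for 7 of the 8 genes. Apoc1 had none. The windows of 4 genes are shown because the results turn on them: Apob was the gene whose signal differed most between the arrays, Apoa1 and Apoa4 are members of 1 cluster whose ratios on ND went opposite ways, and Apoc2 had nearly the pattern of Apoa4. Each sequence is the 250 bases before the annotated start, 5′ to 3′ on the strand of the gene. The windows are chr12:7977427-7977676 on the plus strand for Apob, chr9:46228380-46228629 on the plus strand for Apoa1, chr9:46240594-46240843 on the plus strand for Apoa4 and chr7:19677942-19678191 on the minus strand for Apoc2. Capitals mark matches, on either strand, to TATAAA (the TATA box), AGNTCA (the hexamer bound by nuclear receptors), GTTAAT (a hexamer of HNF1 sites) or TGTTTNC (the core of forkhead factor sites).
Apob: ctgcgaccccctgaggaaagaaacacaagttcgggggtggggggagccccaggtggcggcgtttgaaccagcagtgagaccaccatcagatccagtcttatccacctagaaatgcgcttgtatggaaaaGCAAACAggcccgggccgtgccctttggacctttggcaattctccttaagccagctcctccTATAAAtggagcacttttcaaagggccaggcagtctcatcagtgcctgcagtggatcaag
Apoa1: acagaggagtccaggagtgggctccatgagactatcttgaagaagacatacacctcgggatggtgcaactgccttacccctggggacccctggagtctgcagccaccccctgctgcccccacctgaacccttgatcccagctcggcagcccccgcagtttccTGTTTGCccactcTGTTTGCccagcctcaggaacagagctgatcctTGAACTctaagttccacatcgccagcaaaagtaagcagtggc
Apoa4: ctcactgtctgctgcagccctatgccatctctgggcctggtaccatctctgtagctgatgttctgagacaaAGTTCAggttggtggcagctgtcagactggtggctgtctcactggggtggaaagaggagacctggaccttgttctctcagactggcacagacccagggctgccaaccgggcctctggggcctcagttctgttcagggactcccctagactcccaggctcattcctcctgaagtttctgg
Apoc2: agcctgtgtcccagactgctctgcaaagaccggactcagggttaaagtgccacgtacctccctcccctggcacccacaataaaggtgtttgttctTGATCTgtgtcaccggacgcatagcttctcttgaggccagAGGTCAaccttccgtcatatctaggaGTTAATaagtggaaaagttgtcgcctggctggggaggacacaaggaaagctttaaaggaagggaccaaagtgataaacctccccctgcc

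The Apob window held 1 TATA box match, beginning 60 bases before the start, and 1 forkhead match. The Apoa1 window held 2 forkhead matches and 1 nuclear receptor hexamer, the Apoa4 window 1 nuclear receptor hexamer, and the Apoc2 window 2 nuclear receptor hexamers and 1 HNF1 hexamer. Of all 32851 windows of the same length, 12.4% held TATAAA, 41.3% AGNTCA, 6.43% GTTAAT and 17.8% TGTTTNC. No 2 of these motifs overlapped in the 4 windows. A match describes letters and does not show that a factor binds there.

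The arrays were first checked against their labels. Lipe had signals of 15.9 in HSL-null FD, against 34.0 in wild-type FD, and of 11.9 in HSL-null ND, against 28 in wild-type ND. It was lower in both HSL-null pools, with log2 ratios of -1.10 on FD and -1.23 on ND, though its mean signal was below the filter. The sources used here do not say where its probe set lies relative to the deleted part. All 14 hepatocyte markers on the array, with Alb and Serpina1b the brightest, were kept and above the floor on every array, and their summed signal was 41777 in HSL-null FD, against 40557 in wild-type FD, and 46720 in HSL-null ND, against 52712 in wild-type ND. Of 6 adipocyte markers 1 was kept, Lep, with signals of 99.2 to 124.7, lowest in wild-type ND. A second Lep probe set, below the filter, was highest there, with 18.8, against 11.9 in HSL-null FD, 7.8 in wild-type FD and 8.0 in HSL-null ND. All arrays were of 1 chip lot and scanned on 1 day, but the HSL-null and the wild-type arrays differed in solution lot, and lot and genotype cannot be told apart. Exocrine pancreas markers set the wild-type ND array apart: their 7 kept genes had summed signals of 383.8 in HSL-null FD, 341.0 in wild-type FD and 330.5 in HSL-null ND, against 967.8 in wild-type ND. On ND, 6 of the 7, Ctrb1, Prss2, Clps, Cela2a, Reg1 and Cel, were 2-fold or more lower in HSL-null than in wild type, and all 7 were lower on FD than on ND in wild type, 5 of them 2-fold or more. The part of this in ratios against wild-type ND was not tested.

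None of the 8 genes differed 2-fold or more in any of the 4 comparisons. Among all 4829 kept genes, the share that did was 2.82% when HSL-null was set against wild type on FD (1.86% higher, 0.953% lower) and 1.57% on ND (0.497% higher, 1.08% lower). It was 1.45% when FD was set against ND in HSL-null (0.828% higher, 0.621% lower) and 3.15% in wild type (0.787% higher, 2.36% lower). The higher genes thus made up 66.2, 31.6, 57.1 and 25% of the called genes in these 4 comparisons, but 41.5, 45.5, 31.4 and 45.2% under median scaling. The 8 genes did show different patterns over the 4 arrays, seen in the bar plots of signal by array. Apob was low on the wild-type FD array. Apoe, Apoa1, Apoc1, Apoh and Apoa2 were highest on the wild-type ND array, and Apoa4 and Apoc2 were highest on the HSL-null ND array.

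**Figure D1:**
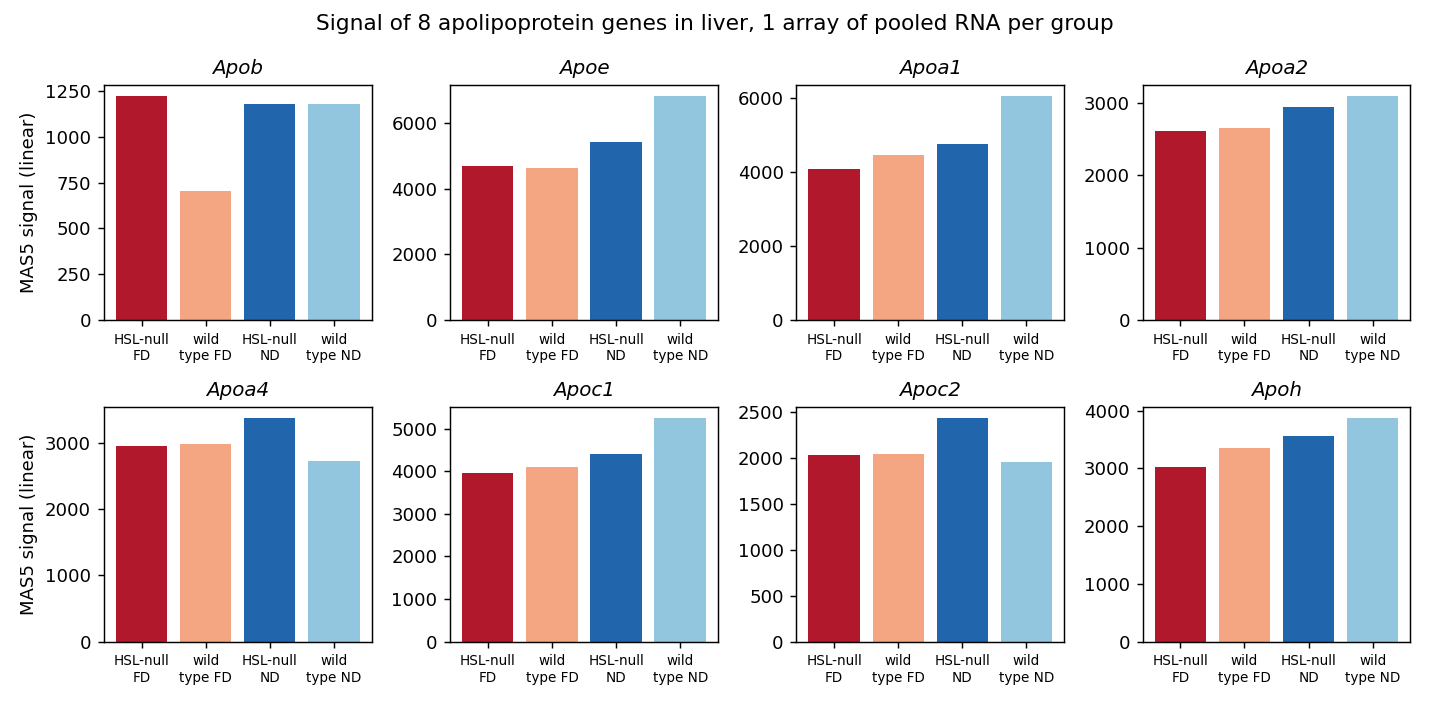
Signal of the 8 apolipoprotein genes on each array, with a linear axis from 0 and 1 bar per group (1 array of pooled liver each, no error bar). Apob stands at 703.2 in wild-type FD and between 1176 and 1222 on the other 3 arrays.

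Apob, the scaffold of triacylglycerol-rich particles, had the widest range of the 8 genes, 0.80 on the log2 scale. Its signal was 1222 in HSL-null FD, against 703.2 in wild-type FD, and 1177 in HSL-null ND, against 1176 in wild-type ND. The wild-type FD array was thus the low one, and the other 3 lay close together. On FD, Apob was 1.74-fold higher in HSL-null than in wild-type liver (log2 ratio 0.80), and in wild type it was 1.67-fold lower on FD than on ND (log2 ratio -0.74). Both log2 ratios were over 2 times the SD of 0.298, and both kept their sign under the 9 alternative settings, with ranges of 0.63 to 0.86 and of -0.80 to -0.60. Of the 9, only quantile normalization, median scaling, cyclic loess and a pseudocount could change the ratio of any of the 8 genes. On ND the genotypes had a log2 ratio of 0.00025 for Apob, and in HSL-null liver FD against ND gave 0.055, which turned to -0.10 under median scaling.

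Among the 4829 kept genes, 203 genes (4.20%) had a ratio at least as high as that of Apob between the genotypes on FD, and 259 genes (5.36%) had one at least as low for FD against ND in wild type. Both comparisons use the wild-type FD array. Among the 291 genes with a mean signal of at least 1000, which include the 8, these counts were 6 (2.06%) and 7 (2.41%). Apob therefore stood further out among bright genes than among all kept genes, whose log2 ratios spread more.

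Marker and control values were read beside those of Apob. The 13 kept markers of Kupffer cells and macrophages, of 14 on the array and with C1qc and Clec4f the brightest, had summed signals of 4050 in HSL-null FD, 3153 in wild-type FD, 4255 in HSL-null ND and 4592 in wild-type ND, so they too were lowest on the wild-type FD array. All 13 were higher in HSL-null than in wild type on FD (median log2 ratio 0.31 over the list, against 0.067 over all kept genes, of which 41.5% were below 0). Second kept probe sets of Laptm5 and C1qb went the other way, at -0.18 and -0.21. The array's controls for transcript ends were also read: the signal of the 3′ probe set of pyruvate carboxylase over that of its 5′ probe set was 1.99 in HSL-null FD, 2.72 in wild-type FD, 2.88 in HSL-null ND and 2.16 in wild-type ND, and that of beta-actin 1.32, 1.49, 1.41 and 1.44 in the same order. In that order the ratio was 0.84, 0.86, 0.85 and 0.87 for Gapdh and 2.46, 2.37, 2.17 and 2.82 for the dim transferrin receptor. The pyruvate carboxylase ratio was highest on the HSL-null ND array and the beta-actin ratio on the wild-type FD array. The Gapdh and transferrin receptor ratios were highest on the wild-type ND array. The part of these values in the Apob result was not tested. In pooled bulk tissue, fewer cells of a type and less RNA per cell cannot be told apart.

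The kept genes whose log2 signals, each centred on its own mean, lay nearest to Apob over the 4 arrays were Eif4g3, Ces1c, Chd1, Ankrd46 and Hc, with Euclidean distances from 0.034 for Eif4g3 to 0.077 for Hc. Ces1c, which encodes a carboxylesterase, had signals of 2174 in HSL-null FD, against 1207 in wild-type FD, and of 2012 in HSL-null ND, against 2030 in wild-type ND. Hc, which encodes complement component C5, had 1307 in HSL-null FD, against 797.4 in wild-type FD, and 1275 in HSL-null ND, against 1336 in wild-type ND. Both show the same single low array. The likeness rests on 4 arrays and is a description.

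The receptor ligand gene Apoe had a signal of 4687 in HSL-null FD, against 4645 in wild-type FD, and of 5422 in HSL-null ND, against 6829 in wild-type ND. The wild-type ND array was the high one. The log2 ratio was -0.56 for FD against ND in wild type, and the settings ran to -0.047 under quantile normalization. It was -0.33 for HSL-null against wild type on ND, but 0.029 under quantile normalization. That method gives every array the same value at each rank. Apoe ranked 2 of the 12422 probe sets by mean signal, so the method itself draws its ratios toward 0. The second Apoe probe set had signals of 1.4 in HSL-null FD, 2.8 in wild-type FD, 7.6 in HSL-null ND and 4.5 in wild-type ND, above the floor on 1 array, and says nothing of the gene's ratios.

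Apoa1, the main protein of high-density lipoprotein and an activator of the cholesterol-esterifying enzyme in plasma, had a signal of 4088 in HSL-null FD, against 4474 in wild-type FD, and of 4769 in HSL-null ND, against 6062 in wild-type ND. It too was highest in wild-type ND. Its log2 ratios were -0.13 between HSL-null and wild type on FD, -0.35 on ND, -0.22 for FD against ND in HSL-null and -0.44 in wild type, and all 4 stayed below 0 under the 9 settings. Under quantile normalization the ratio on ND was -0.045 and that in wild type -0.013. Apoa1 ranked 9 by mean signal, so that method draws its ratios toward 0, as for Apoe.

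Apoa2, the second protein of high-density lipoprotein, was flatter. Its signal was 2603 in HSL-null FD, against 2643 in wild-type FD, and 2944 in HSL-null ND, against 3088 in wild-type ND. These values came from a probe set whose suffix marks probes common to several transcripts. The other Apoa2 probe set, with signals of 11.4 in HSL-null FD, against 12.5 in wild-type FD, and of 14.5 in HSL-null ND, against 10.9 in wild-type ND, was below the filter and had its high value on another array. Its log2 ratio for HSL-null against wild type on ND was 0.41, where the kept probe set had -0.069, or 0.062 under median scaling.

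Apoc1, an inhibitor of lipoprotein uptake and of lipid transfer in plasma, had a signal of 3959 in HSL-null FD, against 4095 in wild-type FD, and of 4412 in HSL-null ND, against 5251 in wild-type ND. The order of the arrays was that of Apoa1. The log2 ratio for FD against ND in wild type was -0.36, but 0.061 under quantile normalization, which draws ratios toward 0 at its rank of 13 by mean signal. Apoh, which encodes beta-2-glycoprotein I, a phospholipid-binding plasma protein, had 3028 in HSL-null FD, against 3350 in wild-type FD, and 3568 in HSL-null ND, against 3873 in wild-type ND. Its log2 ratio was -0.24 for FD against ND in HSL-null, below 0 under all 9 settings, and -0.21 in wild type, but 0.087 under quantile normalization.

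Apoa4, which encodes an apolipoprotein of chylomicrons and high-density lipoprotein, and Apoc2, which encodes the activator of lipoprotein lipase, went together. Apoa4 had a signal of 2949 in HSL-null FD, against 2975 in wild-type FD, and of 3374 in HSL-null ND, against 2724 in wild-type ND. Apoc2 had 2027 in HSL-null FD, against 2041 in wild-type FD, and 2435 in HSL-null ND, against 1953 in wild-type ND. In both, the HSL-null ND array was the high one. On ND, HSL-null over wild type gave a log2 ratio of 0.31 for Apoa4 and 0.32 for Apoc2, each just over the SD of 0.298. The SD over 19 genes at 1000 or more was 0.134. Both ratios stayed between 0.31 and 0.45 under the 9 settings. Of all 4829 kept genes, 519 (10.7%) were at least as high as Apoa4 in this comparison and 482 (9.98%) at least as high as Apoc2. Among the 291 bright genes these counts were 10 (3.44%) and 9 (3.09%). On FD the genotypes had log2 ratios of -0.013 for Apoa4 and -0.0099 for Apoc2, whose signs turned under cyclic loess, and for Apoc2 also under quantile normalization.

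Because Apoa4 is expressed in intestine as well as in liver, enterocyte markers were also read. Of 8 on the array, 2 were kept, Fabp2 and Anpep, with summed signals of 599.6 in HSL-null FD, 608.3 in wild-type FD, 496.0 in HSL-null ND and 423.0 in wild-type ND. Both were higher in HSL-null than in wild type on ND, with log2 ratios of 0.25 for Fabp2 and 0.19 for Anpep. Of the 6 below the filter, Vil1, which encodes the brush border protein villin, Cdx2 and Mep1a were under the floor on all 4 arrays, and Cdx1 and Lct had signals of 1.0 to 7.5. Slc5a1, which encodes the intestinal sodium-glucose transporter, had 12.4 in HSL-null FD, against 17.9 in wild-type FD, and 27.8 in HSL-null ND, against 18.9 in wild-type ND, highest on the array where Apoa4 was highest. The part of these values in the Apoa4 result was not tested.

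**Figure D2:**
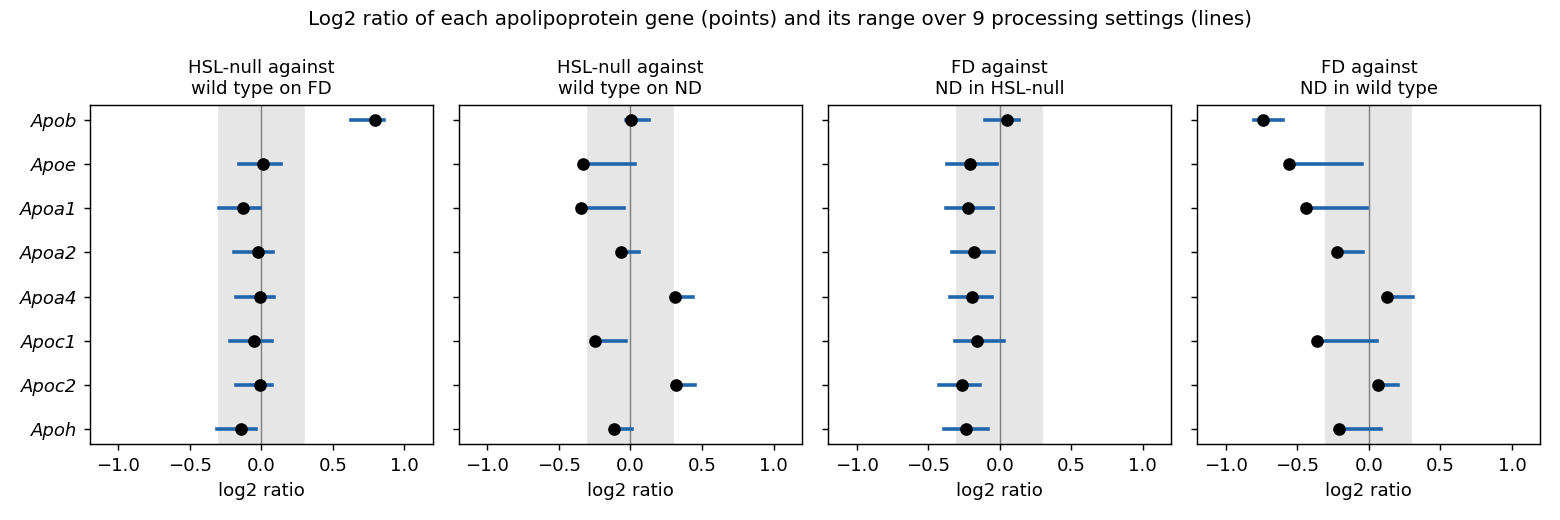
Log2 ratio of each gene in the 4 comparisons (black points), its range over the 9 alternative settings (blue lines) and the band of 1 SD from disagreement between probe sets, 0.298 either side of 0 (grey). Apob lies at 0.80 between the genotypes on FD and at -0.74 for FD against ND in wild type, with both lines outside the band. The SD over 19 genes with both probe sets at 1000 or more, 0.134, is not drawn.

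By distance over the 4 arrays, the closest pair among the 8 genes was Apoa4 and Apoc2, at 0.067, although they lie on different chromosomes. Apoa2 and Apoh followed at 0.096, Apoa1 and Apoe at 0.11, and Apoa1 and Apoc1 at 0.11. Members of a cluster were not alike throughout. Apoa1 and Apoa4 on chromosome 9, with Apoc3 between them, were 0.56 apart. Apoe and Apoc2 on chromosome 7, with Apoc1 and Apoc4 between them, were 0.54 apart. Apoe and its direct neighbour Apoc1 were 0.14 apart. Apob was between 0.60 and 0.70 from each of the other 7. The distances were not recomputed under the 9 settings.

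The shared pattern of Apoe, Apoa1 and Apoc1 was set beside that of other bright genes, a comparison chosen after the data were seen. The 43 other kept genes with a mean signal of at least 3000 had a median log2 ratio of -0.31 for FD against ND in wild type, and 90.7% of them lay below 0. Over all 4821 other kept genes the median was -0.047. For HSL-null against wild type on ND, the medians were -0.17 for the bright genes and -0.018 for all. The albumin gene Alb, with signals of 4680 in HSL-null FD, against 4976 in wild-type FD, and of 5382 in HSL-null ND, against 6913 in wild-type ND, had log2 ratios of -0.47 for FD against ND in wild type and -0.36 for HSL-null against wild type on ND.

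Relative to the median of those 43 genes, the log2 ratio for FD against ND in wild type was -0.25 for Apoe, -0.13 for Apoa1, -0.051 for Apoc1 and 0.099 for Apoh. Apob stood at -0.43 on that scale, against -0.74 as first given, a shift larger than the SD of 0.298, and Apoa4 and Apoc2 stood at 0.44 and 0.37. For HSL-null against wild type on ND, Apoa4 and Apoc2 both stood at 0.48 on that scale, Apoe at -0.17 and Apoa1 at -0.18. The ratio of Apob on FD was 0.80 both as first given and relative to those 43 genes. Apob, Apoa2 and Apoc2 had mean signals below 3000. FD against ND in wild type was also set relative to the 283 other genes at 1000 or more. Apob then stood at -0.66, Apoe at -0.48, Apoa1 at -0.36, Apoc1 at -0.28, Apoh at -0.13, Apoa4 at 0.21 and Apoc2 at 0.14. On ND, HSL-null against wild type then gave 0.33 for Apoa4, 0.34 for Apoc2, -0.31 for Apoe and -0.33 for Apoa1. On FD, Apob then stood at 0.84.

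**Figure D3:**
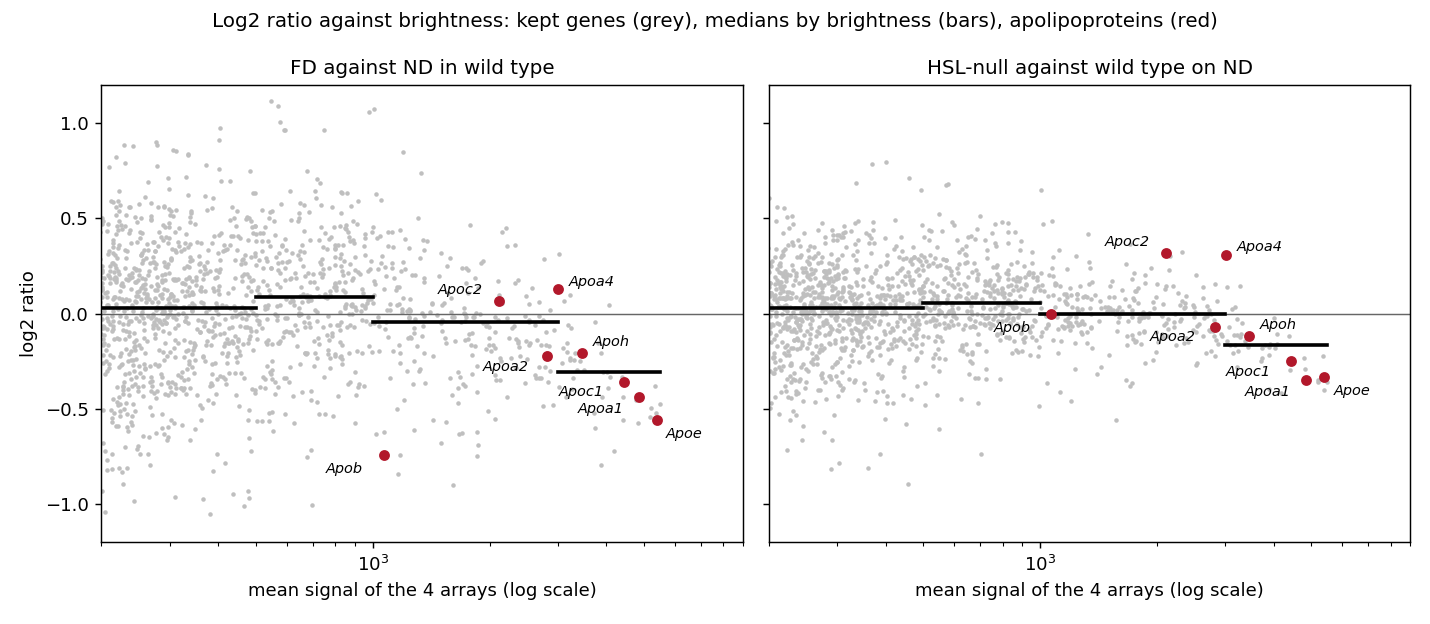
Log2 ratio against the mean signal of the 4 arrays (log scale) for kept genes with a mean signal of at least 200 (grey) and the 8 apolipoprotein genes (red), with medians of the other genes by brightness (black bars); genes beyond the axes are not drawn. The bar of genes at 3000 or more lies at -0.31 for FD against ND in wild type, near Apoc1, Apoh and Apoa2, while Apob lies below and Apoa4 and Apoc2 above.

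Over the 8 genes, the median log2 ratio was -0.018 between HSL-null and wild type on FD, -0.094 on ND, -0.20 for FD against ND in HSL-null and -0.29 in wild type. The median on FD turned to 0.078 under cyclic loess, and that on ND to 0.0041 under quantile normalization and 0.037 under median scaling. Over all kept genes the medians were 0.067, -0.018, 0.041 and -0.047. For FD against ND in HSL-null, 7 of the 8 genes were below 0, all but Apob, against 42.8% of all kept genes. Of the 7, Apoc1 turned to 0.033 under quantile normalization and to 0.011 under cyclic loess. The largest size among the 7 was 0.26, below the SD of 0.298. Each of the 7 was above the SD of 0.134, which rests on 19 genes at 1000 or more. Of the other genes with a mean signal of at least 1000, as all 8 had, 74.9% were below 0 in this comparison, and of those at 3000 or more 90.7%. For FD against ND in wild type, 6 of 8 were below 0, against 55.7% of all kept genes, 64.0% of other genes at 1000 or more and 90.7% of those at 3000 or more, and the median turned to 0.024 under quantile normalization.

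The genotype log2 ratio on FD minus that on ND uses all 4 arrays. It was 0.80 for Apob, where 423 of the 4829 genes (8.76%) and 5 of the 291 bright genes (1.72%) were at least as high. It was 0.35 for Apoe, -0.32 for Apoa4 and -0.33 for Apoc2, and between -0.027 and 0.22 for the other 4 genes, each of which changed sign under at least 1 setting. Apob, Apoe, Apoa4 and Apoc2 kept their sign under the 9 settings, Apoe with values as low as 0.028.

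Of the other apolipoprotein genes listed, 6 of the 7 on the array were kept, and none was 2-fold different in any comparison. Their median log2 ratio was -0.078 between HSL-null and wild type on FD and -0.082 between FD and ND in wild type, where all kept genes had 0.067 and -0.047. Apom, an apolipoprotein of high-density lipoprotein that carries sphingosine 1-phosphate, had 860.9 in HSL-null FD, against 1232 in wild-type FD, and 1149 in HSL-null ND, against 1074 in wild-type ND, a log2 ratio of -0.52 between HSL-null and wild type on FD. It was lowest on the HSL-null FD array. Apoa5, which promotes the clearance of triacylglycerol from plasma, had 2150 in HSL-null FD, against 2447 in wild-type FD, and 2851 in HSL-null ND, against 3091 in wild-type ND, and its 3 probe sets gave log2 ratios of -0.41, -0.36 and -0.40 for FD against ND in HSL-null. Saa4, which encodes the constitutive serum amyloid A of high-density lipoprotein, had a log2 ratio of 0.57 in that comparison. Apoc4, the neighbour of Apoc2, had -0.12 for HSL-null against wild type on ND, where Apoc2 had 0.32. Apod had signals of 0.8 to 3.9 and was below the floor on all 4 arrays.

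Genes of assembly and secretion of particles with apolipoprotein B had 7 kept members, with a median of -0.096 and -0.0039 in those comparisons. Apobec1, which encodes the enzyme that edits the Apob transcript, had a signal of 109.5 in HSL-null FD, against 53.7 in wild-type FD, and of 90.4 in HSL-null ND, against 72.0 in wild-type ND. It was the 1 gene of the 7 that was 2-fold or more higher in HSL-null liver on FD (log2 ratio 1.03), in a comparison where 1.86% of all kept genes were, and none was lower. Its low array was that of Apob. Mttp, which encodes the transfer protein that loads lipid on apolipoprotein B, had 157.3 in HSL-null FD, against 155.3 in wild-type FD, and 160.0 in HSL-null ND, against 119.7 in wild-type ND. P4hb, the other subunit of that transfer protein, had log2 ratios of 0.54 on FD and -0.45 on ND for HSL-null against wild type, but -0.13 and 0.084 at a second, dimmer probe set. Sar1b, a GTPase of export from the endoplasmic reticulum, had -0.53 on FD at its brighter probe set and 0.20 at the other.

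Of the 9 kept genes of high-density lipoprotein formation and remodelling, none was 2-fold different in any comparison, and the medians were -0.029 and -0.11. Abca1, the transporter that loads lipid on apolipoprotein A-I, had 463.1 in HSL-null FD, against 240.9 in wild-type FD, and 324.0 in HSL-null ND, against 366.1 in wild-type ND. Its log2 ratio on FD was 0.94, and 0.64 at its other probe set. Angptl4, an inhibitor of lipoprotein lipase, had 95.4 in HSL-null FD, against 166.2 in wild-type FD, and 181.9 in HSL-null ND, against 163.3 in wild-type ND, which made HSL-null FD the low array, as at its other 2 kept probe sets. Pltp, the phospholipid transfer protein gene, was highest in wild-type ND, with 240.4 in HSL-null FD, against 254.7 in wild-type FD, and 279.3 in HSL-null ND, against 403.7 in wild-type ND.

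Among receptors and uptake genes, 6 of 10 on the array were kept, with medians of -0.052 and 0.11. Lrp1, the receptor for remnants that carry apolipoprotein E, had 372.4 in HSL-null FD, against 248.0 in wild-type FD, and 386.5 in HSL-null ND, against 513.4 in wild-type ND. It was the 1 gene of the 6 that was 2-fold or more lower on FD than on ND in wild type (log2 ratio -1.05), where 2.36% of all kept genes were. Median scaling moved the all-gene median by 0.14 in this comparison, and Lrp1 was not reread under it. Cd36, a fatty acid transporter, had 47.5 in HSL-null FD and 24.9 in HSL-null ND, a log2 ratio of 0.93, and Lsr, a lipoprotein receptor of hepatocytes, had 547.2 and 804.7, a log2 ratio of -0.56. Scarb1, the receptor for high-density lipoprotein, lay between 711.7 and 794.2 on the 4 arrays.

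Of 18 kept transcription factor genes, with medians of 0.018 and -0.084, 1 was 2-fold different. Nr0b2, which encodes the repressor SHP, a target of the bile acid receptor, had 220.4 in HSL-null FD, against 97.1 in wild-type FD, and 104.0 in HSL-null ND, against 99.5 in wild-type ND. It was high on the HSL-null FD array, with log2 ratios of 1.18 between HSL-null and wild type on FD and 1.08 for FD against ND in HSL-null, a comparison where 0.828% of all kept genes were 2-fold or more higher. Median scaling moved the all-gene median by -0.17 and -0.16 in these comparisons, and Nr0b2 was not reread under it. Nr1h4, the bile acid receptor gene, had 204.0 in HSL-null FD, against 163.4 in wild-type FD, and 112.0 in HSL-null ND, against 128.6 in wild-type ND. Rora, a nuclear receptor gene of which Apoa1 and Apoc3 are known targets, had a log2 ratio of -0.78 for FD against ND in wild type. Hnf4a, a main activator of apolipoprotein genes in liver, had 256.9 in HSL-null FD, against 279.3 in wild-type FD. On ND it had 247.3 in HSL-null, against 337.7 in wild type. It was highest on the wild-type ND array, as were Apoe, Apoa1, Apoc1, Apoh and Apoa2, but Apoa4 and Apoc2 were lowest there. Hnf4a was lowest in HSL-null ND, where Apoe, Apoa1 and Apoc1 were higher than on either FD array. The part of Hnf4a in these patterns was not tested.

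**Figure D4:**
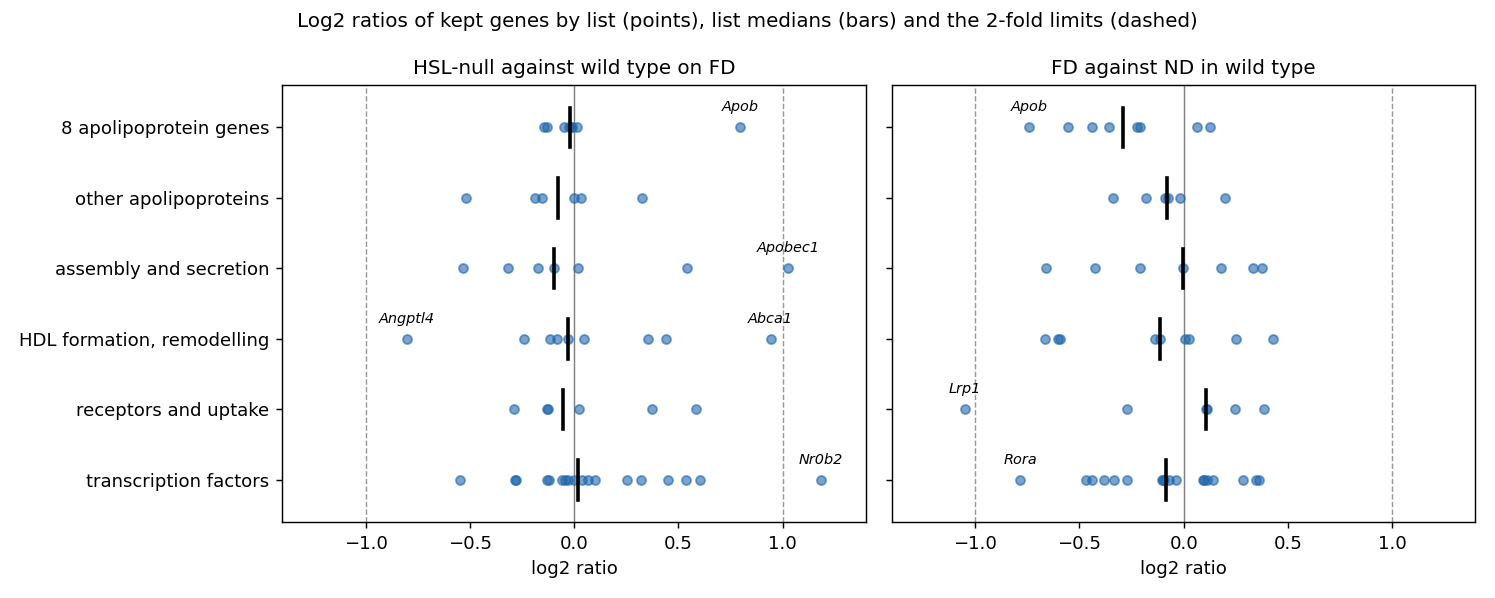
Log2 ratios of the kept genes of each list (points), list medians (black bars) and the 2-fold limits (dashed) between HSL-null and wild type on FD and for FD against ND in wild type; genes at 0.7 or more in size are named. Apobec1 and Nr0b2 pass the limit in the first comparison, at 1.03 and 1.18, and Lrp1 in the second, at -1.05.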

How the data were processed

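The deposited table holds 1 intensity per probe set and array, which the authors made with MAS5, per the submitters' processing notes, its version not given there. The 1 further file per array gave run settings. Per the series' design text, liver samples were pooled within each group before RNA extraction, and pools are named by genotype and diet in the labels. Of the 12422 non-control probe sets, 10833 had 1 gene in the platform annotation, 396 several and 1193 none, and the last 2 kinds stayed unnamed. After the filter there were 5615 probe sets for 4829 genes, and the brightest stood for its gene. Ratios were computed with Python 3.11.15, pandas 2.3.3 and numpy 2.4.6, and cyclic loess with limma 3.58.1, and the steps were checked on simulated data. The 9 alternatives were quantile normalization, median scaling, cyclic loess, a pseudocount of 16, the floor at the median, no filter, a filter at the 75th percentile, averaged probe sets, and no suffix probe sets. The members and lists were chosen with earlier results of these data known. Named list genes were the 3 with the largest ratio of each list (the 2 brightest for markers) and any 2-fold different, and the genes nearest to Apob were the nearest 5; Apoc4, Apod, Mttp, Scarb1, Hnf4a, Laptm5, C1qb and the enterocyte markers below the filter were named after their values were seen. Per the RefSeq tables, sequences are of GRCm38.p6.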

Additional observations from a re-analysis of the deposited data

Results flagged for a closer look

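The 4 genes Apob, Apoa4, Apoc2 and Apoe had ratios that went opposite ways in the comparisons of the other factor, and these differences were not tested, as each ratio rests on 1 array per group. Apob had a log2 ratio for FD against ND of 0.055 in HSL-null and -0.74 in wild type, a difference of 0.80. Apoa4 had -0.19 in HSL-null and 0.13 in wild type, a difference of -0.32, and its genotype ratios were -0.013 on FD and 0.31 on ND, which is the same difference since the same 4 arrays enter. Apoc2 had -0.26 in HSL-null and 0.064 in wild type, and genotype ratios of -0.0099 on FD and 0.32 on ND, a difference of -0.33 either way. Apoe had genotype ratios of 0.013 on FD and -0.33 on ND, a difference of 0.35. The smaller ratio of each pair lay within the SD of 0.298 from disagreement between probe sets, so its sign is not settled. For FD against ND in Apoa4 and Apoc2, both ratios lay within that SD, so by that SD neither sign is settled. The SD over 19 genes at 1000 or more was 0.134. The ratios of Apoa4 and Apoc2 in HSL-null were larger than that in size, and those in wild type were not.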

How the results depend on the processing

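The 9 alternatives gave 355 recomputed values for single genes, of which 0 reached 2-fold, 6 moved by more than the SD of 0.298 and 24 changed sign, the largest of these from a size of 0.36. Only quantile normalization, median scaling, cyclic loess and the pseudocount could change such a value. The other alternatives repeated the reported values, apart from Apoa2, which had none without suffix probe sets. Those repeats are no sign of stability. Quantile normalization gives every array the same value at each rank. It therefore draws the ratios of the brightest genes, such as Apoe, Apoa1 and Apoc1, toward 0 whatever their cause. The 77 recomputed medians came from the 9 alternatives and from leaving out each of the 8 genes in turn. Of the 77, 1 moved by more than the SD of 0.298, to 0.024 for FD against ND in wild type under quantile normalization, against -0.29 as reported. Relative to other genes with a mean signal of at least 3000, an alternative added after seeing the data, it was 0.017. Those genes had a median of -0.31 in that comparison, against -0.079 for other genes at 1000 or more. All 8 genes were above 1000, but Apob, Apoa2 and Apoc2 were below 3000. Leaving out each of the 8 genes in turn gave medians from -0.36 to -0.22 in that comparison. No paired analysis was possible because each group has 1 array, and no array could be left out for the same reason.

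The counts of genes 2-fold or more different over all genes depended on the settings. Between HSL-null and wild type on FD, 90 higher and 46 lower genes became 51 and 72 with median scaling, 35 and 28 with a pseudocount, 277 and 142 with no filter and 20 and 24 with the stricter filter, and the higher genes were 58 with cyclic loess and 52 with the floor at the median. Between HSL-null and wild type on ND, 24 higher and 52 lower became 9 and 19 with a pseudocount, 95 and 218 with no filter and 7 and 7 with the stricter filter, and the lower genes were 30 with the floor at the median. For FD against ND in HSL-null, 40 higher and 30 lower became 22 and 48 with median scaling, 14 and 19 with a pseudocount, 187 and 103 with no filter and 12 and 18 with the stricter filter, and the higher genes were 23 with the floor at the median. For FD against ND in wild type, 38 higher and 114 lower became 61 and 74 with median scaling, 21 and 48 with a pseudocount, 144 and 336 with no filter and 19 and 28 with the stricter filter. The filters change how many genes enter, and the cause of the other changes was not tested. With median scaling, the all-gene median moved by -0.17, 0.13, -0.16 and 0.14 in the 4 comparisons in that order. The share of higher among called genes was 66.2, 31.6, 57.1 and 25% as reported, 51.6, 42.4, 41.8 and 36.4% under quantile normalization, 41.5, 45.5, 31.4 and 45.2% under median scaling and 50, 40.3, 40.9 and 33.8% under cyclic loess.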
